A study of Mus musculus with 4 samples.

Results

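Small leucine-rich proteoglycans are a family of secreted matrix proteins. The family members described here are the 10 genes Dcn, Bgn, Aspn, Lum, Fmod, Prelp, Omd, Kera, Epyc and Ogn, out of 22911 genes with a named probe. They were chosen by name. Every array probe whose RefSeq accession belongs to 1 of them was taken, and a gene with several probes was represented by the one that was brightest on average. All 10 genes had a probe. Prelp had 2 probes, and the other 9 genes had 1 each.

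RNA came from mouse tissue labelled PDL, short for periodontal ligament, the connective tissue that holds a tooth root in its bony socket. The 4 groups were wild type (WT) mice of 10 weeks, Mkx-KO mice of 10 weeks, WT mice of 4 weeks and Mkx-KO mice of 4 weeks. Mkx-KO mice carry a knockout of Mkx, the gene of the tendon and ligament transcription factor Mohawk. The labels give neither the allele, the strain and sex of the mice, nor the number of mice in a preparation. Each group had 1 array, so no group has a measured spread between mice, and the small number of arrays limits the precision.

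These proteins share a curved core of leucine-rich repeats that binds the surface of collagen fibrils and sets fibril width and spacing. Most of them carry sulphated sugar chains, and several also bind growth factors of the TGF-beta and BMP families. In periodontal ligament the family is best known through asporin, which was named periodontal ligament associated protein and restrains mineral formation, and through decorin, lumican and fibromodulin, whose loss disturbs the collagen bundles that anchor the tooth.

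Most of the family lies in gene clusters of the mouse genome. In the RefSeq gene table, Dcn, Lum, Kera and Epyc follow one another on chromosome 10, Aspn, Omd and Ogn follow one another on chromosome 13, and Prelp and Fmod are neighbours on chromosome 1. Bgn stands apart from the others on the X chromosome. RefSeq promoter windows (build GRCm38.p6) were found for 8 of the 10 genes, and not for Dcn and Lum. The 250 bases before the start are shown for Fmod and Bgn, which had the largest age differences below 0 when averaged over both genotypes, and for Omd, which beside Kera was the only member more than 2 technical errors apart between genotypes at 10 weeks. They are the gene's own strand, 5′ to 3′, at chr1:134037004-134037253, chrX:73483351-73483600 and chr13:49582212-49582461, all on the plus strand. Capitals mark matches to CANNTG, the E-box that basic helix-loop-helix factors such as scleraxis bind.
Fmod: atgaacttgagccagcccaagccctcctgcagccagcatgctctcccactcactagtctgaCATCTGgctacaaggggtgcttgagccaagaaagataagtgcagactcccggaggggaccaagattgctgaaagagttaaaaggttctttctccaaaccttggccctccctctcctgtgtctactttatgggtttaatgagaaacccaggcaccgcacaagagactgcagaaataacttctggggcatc
Bgn: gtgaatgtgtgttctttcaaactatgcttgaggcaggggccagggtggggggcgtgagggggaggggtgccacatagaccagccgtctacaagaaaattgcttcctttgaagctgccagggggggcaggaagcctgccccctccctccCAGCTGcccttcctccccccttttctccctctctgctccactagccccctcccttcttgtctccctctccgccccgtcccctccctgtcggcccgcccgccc
Omd: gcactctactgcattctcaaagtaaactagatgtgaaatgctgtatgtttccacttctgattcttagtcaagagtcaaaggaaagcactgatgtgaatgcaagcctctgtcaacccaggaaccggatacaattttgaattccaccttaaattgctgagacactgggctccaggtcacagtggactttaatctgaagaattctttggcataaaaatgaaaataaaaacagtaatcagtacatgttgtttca
The windows of Kera and Prelp are not printed, because 243 and 250 of their bases lie inside the RefSeq gene record and may be transcribed. The E-box letters occurred once in the Fmod and the Bgn window and not in those of Omd, Kera and Prelp. Both strands were searched for CANNTG, for TATAAA (the TATA box) and for CAGAC (a core that SMAD proteins bind). CANNTG occurred in windows of 5 of the 8 genes (66.2% of all 32851 promoter windows), for Epyc only in a second window that lies inside its gene record, TATAAA in 2 (12.4%) and CAGAC in 2 (42.2%). Fmod had 2 matches to CAGAC and Prelp 1. These are matches of letters in this window and not measured binding sites.

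Signals are given as processed signals, the background-subtracted spot brightness in arbitrary units. A level is the log2 processed signal after subtraction of the array's own 75th percentile, and a difference is one level minus another, in log2 units. The technical error of a difference combines the scanner software's error estimates of both spots and does not cover variation between mice. A gene counted as measured in a pair of arrays when both spots were called well above background, and as called when the difference was also at least 2-fold. Of the 10 genes, 9 were well above background on all 4 arrays, and Epyc was on 3. All 10 markers of ligament fibroblasts, Postn among them, were well above background on every array. Summed levels here add levels turned back from log2 to the linear scale, so the brightest markers weigh most. For the ligament fibroblast markers the sum lay between 846 and 1026, most of it from Postn and Col1a1. The level of Mkx was 0.84 (WT) against -1.26 (Mkx-KO) at 10 weeks, or 23.3% of WT, and 1.08 against -0.57 at 4 weeks, or 31.8%. Whether its probe lies in the deleted stretch is not given in the sources used here. Summed levels of other cell types ran from 143 to 421 for 7 bone and cementum markers, 19.6 to 55.7 for 6 odontoblast and ameloblast markers, 1.01 to 50.6 for 6 olfactory neuron markers, 15.6 to 83.4 for 7 skeletal muscle markers, 323 to 831 for 7 oral epithelium markers and 38.3 to 223 for 6 neutrophil precursor markers. In such tissue, fewer cells of a type and less RNA per cell cannot be told apart.

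**Figure D1:**
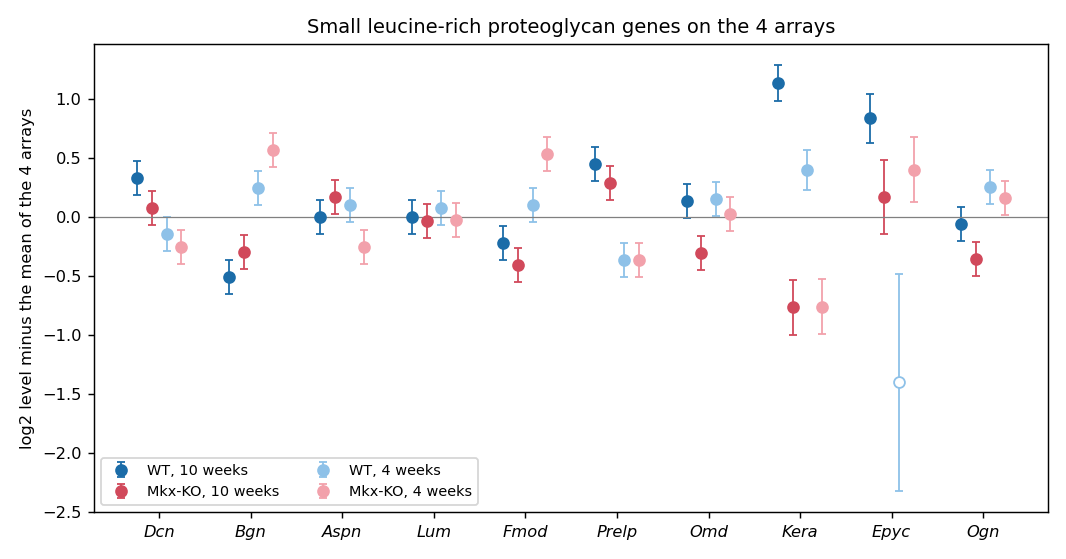
Level of each gene on each array, as log2 level minus the gene's mean over the 4 arrays, for WT and Mkx-KO at 10 and 4 weeks. Bars are the technical error of the spot from the scanner software, and the open circle marks the spot of Epyc that was not well above background. The 4 points of Lum lie within 0.11 log2 units of each other, and those of Kera spread over 1.90.

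The comparison of Mkx-KO with WT asked which of these genes differ in ligament tissue of the knockout mice. Kera, the keratocan gene, was lower in the knockout at 10 and at 4 weeks, and was the only measured member at least 2-fold apart between genotypes. At 10 weeks 1 of 10 measured members was called, against 2.41% of all 16457 genes measured (1.04% higher and 1.37% lower). At 4 weeks 1 of 9 was called, against 3.78% of 15686 genes (0.472% higher and 3.31% lower). The members' median difference was -0.22 at 10 weeks, where the median of all genes was 0.01, and -0.10 at 4 weeks, where that of all genes was 0.06.

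Class I of the family holds decorin, biglycan and asporin. Dcn encodes decorin, which carries a dermatan sulphate chain and holds TGF-beta in the matrix. It read 131096 (WT) against 92009 (Mkx-KO) at 10 weeks, and 81303 (WT) against 81001 (Mkx-KO) at 4 weeks. The WT array of 10 weeks was highest as read. After scaling, Dcn differed by -0.26 ± 0.20 (technical error) at 10 weeks and by -0.11 ± 0.20 at 4 weeks. Bgn encodes biglycan, the closest relative of decorin, with chondroitin or dermatan sulphate chains. Its signals were 1246 (WT) against 1213 (Mkx-KO) at 10 weeks, and 1823 (WT) against 2451 (Mkx-KO) at 4 weeks. The difference was 0.21 ± 0.20 at 10 weeks and 0.32 ± 0.20 at 4 weeks, so it was positive at both ages but under 2 technical errors at each. Aspn, the asporin gene, read 22152 (WT) against 20907 (Mkx-KO) at 10 weeks, and 20527 (WT) against 17272 (Mkx-KO) at 4 weeks. It differed by 0.17 ± 0.20 and -0.35 ± 0.20, with opposite signs at the 2 ages.

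Class II holds lumican, fibromodulin, PRELP, osteomodulin and keratocan. Lum encodes lumican, which keeps collagen fibrils thin and evenly spaced. Its signals were 109400 (WT) against 89657 (Mkx-KO) at 10 weeks, and 99497 (WT) against 99688 (Mkx-KO) at 4 weeks. Lum varied least of the 10 genes after scaling, with differences of -0.04 ± 0.20 and -0.10 ± 0.20. Fmod encodes fibromodulin, which guides the cross-linking of collagen in tendon. It read 2007 (WT) against 1482 (Mkx-KO) at 10 weeks, and 2156 (WT) against 3130 (Mkx-KO) at 4 weeks. The Mkx-KO array of 4 weeks was highest and that of 10 weeks lowest, which gave differences of -0.19 ± 0.20 at 10 weeks and 0.43 ± 0.20 at 4 weeks. Prelp encodes a protein with a basic, heparin-binding end that links basement membranes to connective tissue. Its brighter probe read 3176 (WT) against 2377 (Mkx-KO) at 10 weeks, and 1552 (WT) against 1674 (Mkx-KO) at 4 weeks. Its genotype differences were -0.17 ± 0.20 and 0.00 ± 0.20. Omd encodes osteomodulin, a keratan sulphate proteoglycan of mineralising tissues. It read 37346 (WT) against 23069 (Mkx-KO) at 10 weeks, and 32558 (WT) against 31958 (Mkx-KO) at 4 weeks. The Mkx-KO array of 10 weeks was the lowest of the 4, at -0.44 ± 0.20 relative to WT, and the 4-week difference was -0.13 ± 0.20.

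Kera encodes keratocan, a keratan sulphate proteoglycan that is abundant in the cornea and is also made in tendon. It read 81.5 (WT) against 18.3 (Mkx-KO) at 10 weeks, and 42.2 (WT) against 20.3 (Mkx-KO) at 4 weeks. Both WT arrays were above both Mkx-KO arrays, and the Mkx-KO arrays lay close together. After scaling the difference was -1.90 ± 0.28 at 10 weeks, which puts Mkx-KO at 26.7% of WT, and -1.16 ± 0.29 at 4 weeks, or 44.8% of WT. At 10 weeks 54 of 16457 genes (0.328%) were at least as far apart in either direction, and at 4 weeks 463 of 15686 (2.95%) were. Of 15504 genes measured on all 4 arrays, 17 (0.11%) were at least 2-fold lower in Mkx-KO at both ages. Taken against Lum, its neighbour on chromosome 10, Kera differed by a further -1.87 ± 0.34 at 10 weeks and -1.06 ± 0.35 at 4 weeks, a contrast that a common scaling factor of an array does not touch. Against Dcn this contrast was -1.64 ± 0.34 and -1.05 ± 0.35. Against Epyc, its dim neighbour on the other side, it was -1.24 ± 0.47 at 10 weeks, and at 4 weeks Epyc had no measured difference.

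The Kera spots were dim. Their median pixel brightness was 124 (WT) against 56.0 (Mkx-KO) at 10 weeks, and 87.0 (WT) against 60.0 (Mkx-KO) at 4 weeks, with a local background of 35.0, 35.0, 38.0 and 39.0. With normexp background correction, which adds an offset of 50, the differences were -0.70 and -0.52, and neither reached 2-fold. For signals of 18.3 to 81.5 an offset of this size by itself shrinks the ratios, so the smaller differences follow in part from that setting. With quantile normalization the 4-week difference was -0.98, just under 2-fold, and the 10-week difference was -2.02. The spots around the Kera spot read within 0.03 log2 units of the mean of the arrays on each array. Oral epithelium markers were lower with Kera in Mkx-KO at 10 weeks (summed level 448 against 831 in WT, 7 of 7 below WT) and higher at 4 weeks (578 against 323, 7 of 7 above WT). Olfactory neuron markers summed to 41.9 in Mkx-KO and 50.6 in WT at 10 weeks, and to 1.01 and 42.9 at 4 weeks. The 5 cornea markers summed to 26.4 in Mkx-KO and 29.9 in WT at 10 weeks, and to 27.3 and 20.9 at 4 weeks. Most of this sum came from 1 marker, Aldh3a1, and the markers were split. At 10 weeks 2 were above and 3 below WT, and at 4 weeks 2 of the 4 measured were above and 2 below. Skeletal muscle markers summed to 83.4 in Mkx-KO and 66.7 in WT at 10 weeks, and to 15.6 and 44.0 at 4 weeks, where 7 of 7 were at least 2-fold lower. The part of these other tissues in the Kera difference was not tested.

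**Figure D2:**
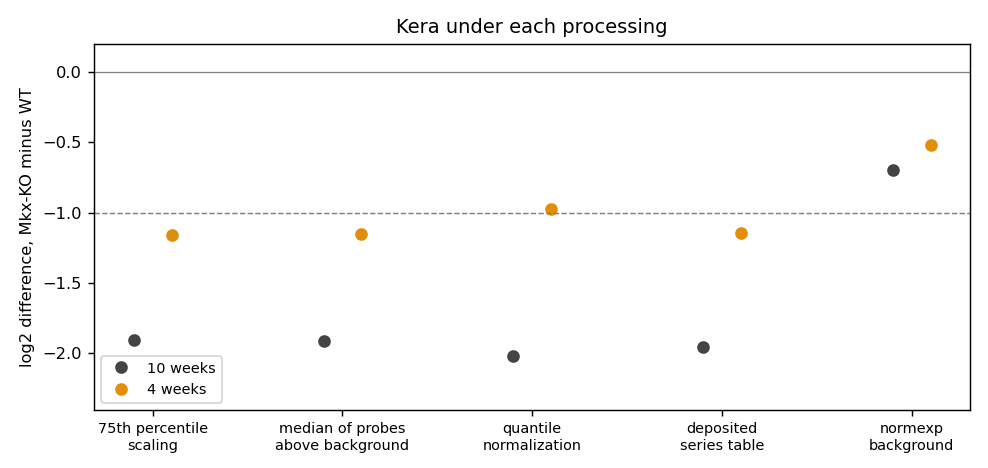
Log2 difference of Kera between Mkx-KO and WT at 10 and 4 weeks under 5 ways of processing the arrays. The dashed line marks a 2-fold lower level, which the 10-week points reach under 4 of them and the 4-week points under 3. Every point is below 0, and those after normexp correction, at -0.70 and -0.52, are the smallest in size.

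Class III holds epiphycan and osteoglycin. Epyc encodes epiphycan, a dermatan sulphate proteoglycan of growth plate cartilage. It read 19.6 (WT) against 10.4 (Mkx-KO) at 10 weeks, and 3.6 (WT) against 13.5 (Mkx-KO) at 4 weeks. All 4 spots were dim, and that of WT at 4 weeks was not well above background. The 10-week difference was -0.66 ± 0.38. At 4 weeks Epyc was at least 1.09-fold higher in Mkx-KO, with the WT spot set at the detection limit of its array, the lowest level there that passed as above background. This bound, 0.12 log2 units, is smaller than the technical error of the Mkx-KO spot, 0.28. Cartilage markers had summed levels between 44.4 and 54.7 on the 4 arrays, mostly from Col2a1, and 4 to 6 of 8 well above background. Of the dim markers, Cnmd read 15.3 (WT) against 5.9 (Mkx-KO) at 10 weeks, and 7.9 against 13.8 at 4 weeks. Col9a1 read 40.5 against 11.6, and 37.8 against 36.0. Matn1 read 2.5 against 3.1, and 2.8 against 2.8. Matn3 read 2.6 against 2.5, and 2.8 against 4.8. The readings of 5.9, 7.9 and 11.6 and all those of Matn1 and Matn3 were not well above background. Of measured cartilage markers 2 were above and 2 below WT at 10 weeks, and 4 above and 1 below at 4 weeks. The part of cartilage in the Epyc values was not tested. Ogn encodes osteoglycin, also called mimecan, which regulates the size of collagen fibrils. It read 18929 (WT) against 12993 (Mkx-KO) at 10 weeks, and 20390 (WT) against 20536 (Mkx-KO) at 4 weeks. Its differences were -0.29 ± 0.20 and -0.09 ± 0.20.

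**Figure D3:**
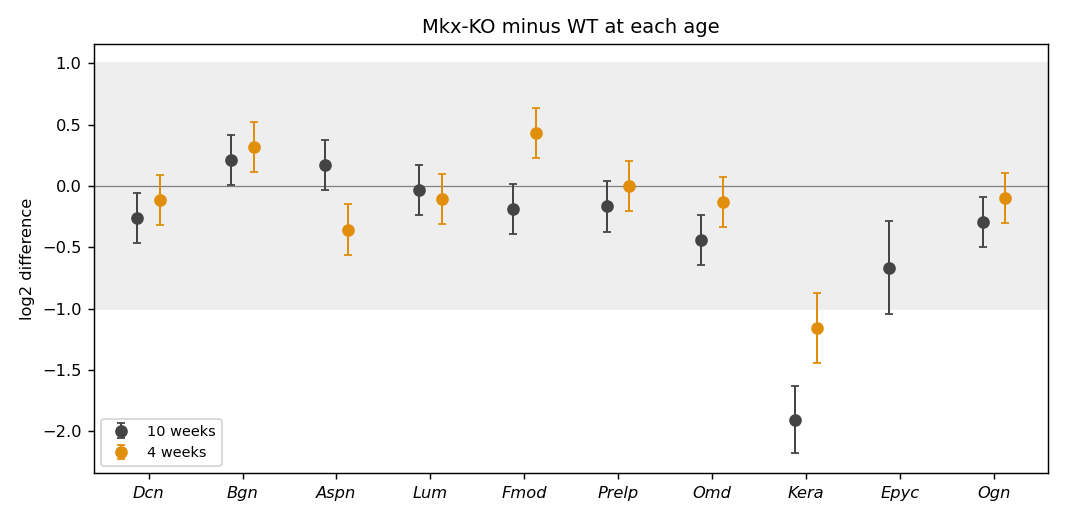
Log2 difference of each gene between Mkx-KO and WT, at 10 weeks and at 4 weeks. Bars are technical errors and the grey band spans 2-fold in either direction. Kera lies below the band at both ages and the other points lie inside it; Epyc at 4 weeks has no measured difference.

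At 10 weeks 2 of 10 members, Kera and Omd, exceeded 2 technical errors, against 14.0% of all genes. At 4 weeks 2 of 9 did, Kera and Fmod, against 15.6%. With quantile normalization Fmod was at 0.33 at 4 weeks, under 2 technical errors. On chromosome 10 the 10-week values were -0.26 for Dcn, -0.04 for Lum, -1.90 for Kera and -0.66 for Epyc, and on chromosome 13 they were 0.17 for Aspn, -0.44 for Omd and -0.29 for Ogn. On chromosome 1 Prelp and Fmod were at -0.17 and -0.19, which are 0.02 ± 0.29 apart, while at 4 weeks they were -0.43 ± 0.29 apart.

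A fit of genotype and age together over the 4 arrays with limma tested genotype with 1 residual degree of freedom. It takes the genotype difference to be the same at both ages. With no replicate arrays, its intervals rest on departures from that and on a spread shared across genes. For Kera it gave -1.53 (95% confidence interval -2.38 to -0.68, SE 0.26), with an unadjusted p of 0.0114 and a Benjamini-Hochberg adjusted p of 0.9996 over 16795 genes. The other 9 members had unadjusted limma p-values of 0.138 to 0.678, all with an adjusted p of 0.9996; the dim WT spot of Epyc at 4 weeks entered this fit at its measured value. No gene of the array passed the adjusted threshold of 0.05 for genotype with limma, and 455 (2.71%) had an unadjusted p below 0.05. The intervals of the other bright members were wide against their differences, for example -0.63 to 0.26 for Dcn and -0.49 to 0.35 for Lum.

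The comparison of 10 with 4 weeks asked how the family differs between young and adult ligament. Bgn, Fmod and Ogn were lower at 10 weeks and Dcn and Prelp higher, in both genotypes, except that Fmod and Ogn in WT were each at 0.04 with the deposited series table and that the second probe of Prelp was at -0.08 in WT and -0.01 in Mkx-KO. No member was at least 2-fold apart between ages in WT (0 of 9 measured, against 8.84% of 16102 genes, 5.01% higher and 3.83% lower) or in Mkx-KO (0 of 10, against 10.1% of 15669 genes, 6.25% higher and 3.84% lower). Members' medians were -0.08 in WT and -0.12 in Mkx-KO, where the medians of all genes were -0.10 and -0.15. More than 2 technical errors separated the ages for 4 of 9 members in WT (34.8% of all genes) and 5 of 10 in Mkx-KO (41.2%). Markers of other tissues also differed between the ages. Bone and cementum markers summed to 143 at 10 weeks and 421 at 4 weeks in WT (3 of 7 at least 2-fold lower), and to 250.4 and 281 in Mkx-KO. Oral epithelium markers summed to 831 and 323 in WT (6 of 7 at least 2-fold higher) and to 448 and 578 in Mkx-KO. Skeletal muscle markers summed to 66.7 and 44.0 in WT, and to 83.4 and 15.6 in Mkx-KO (7 of 7 at least 2-fold higher). The part of these tissues in the members' age differences was not tested.

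Bgn differed by -0.76 ± 0.20 in WT and -0.87 ± 0.20 in Mkx-KO, which puts the 10-week level at 59.0% and 54.7% of the 4-week level. Fmod differed by -0.32 ± 0.20 in WT and -0.93 ± 0.20 in Mkx-KO. Prelp was at 0.82 ± 0.20 in WT and 0.65 ± 0.20 in Mkx-KO with its brighter probe. The second Prelp probe, which read 44.7 to 55.8 on the 4 arrays, gave -0.08 and -0.01, so the probes of this gene disagree on age. Ogn was at -0.32 ± 0.20 in WT and -0.52 ± 0.20 in Mkx-KO. Dcn was higher at 10 weeks by 0.48 ± 0.20 in WT and 0.33 ± 0.20 in Mkx-KO. Prelp, by its brighter probe, and Fmod, neighbours on chromosome 1, were 1.14 ± 0.29 apart in their age differences in WT and 1.58 ± 0.29 apart in Mkx-KO.

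Kera was at 0.74 ± 0.23 in WT and -0.01 ± 0.33 in Mkx-KO. Aspn was at -0.10 ± 0.20 and 0.42 ± 0.20, Omd at -0.01 ± 0.20 and -0.33 ± 0.20, and Lum at -0.08 ± 0.20 and -0.01 ± 0.20. Epyc was at least 1.47-fold higher at 10 weeks in WT, where its 4-week spot was not well above background, and at -0.23 ± 0.42 in Mkx-KO. With the deposited series table the median age difference of all genes was 0.26 in WT and 0.14 in Mkx-KO, in place of -0.10 and -0.15, and Prelp (1.18) and Kera (1.09) reached 2-fold in WT. That table gave -0.41 in WT and -0.58 in Mkx-KO for Bgn, and 0.83 and 0.62 for Dcn. In WT the signs of Lum, Omd, Aspn, Fmod and Ogn turned under at least 1 scaling, and in Mkx-KO those of Lum, Kera and Epyc. The signs of Bgn, Dcn and Prelp held in both genotypes under normexp, quantile and median scaling and the deposited series table. That of Prelp also held under the mean over probes, which leaves a gene with 1 probe unchanged.

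**Figure D4:**
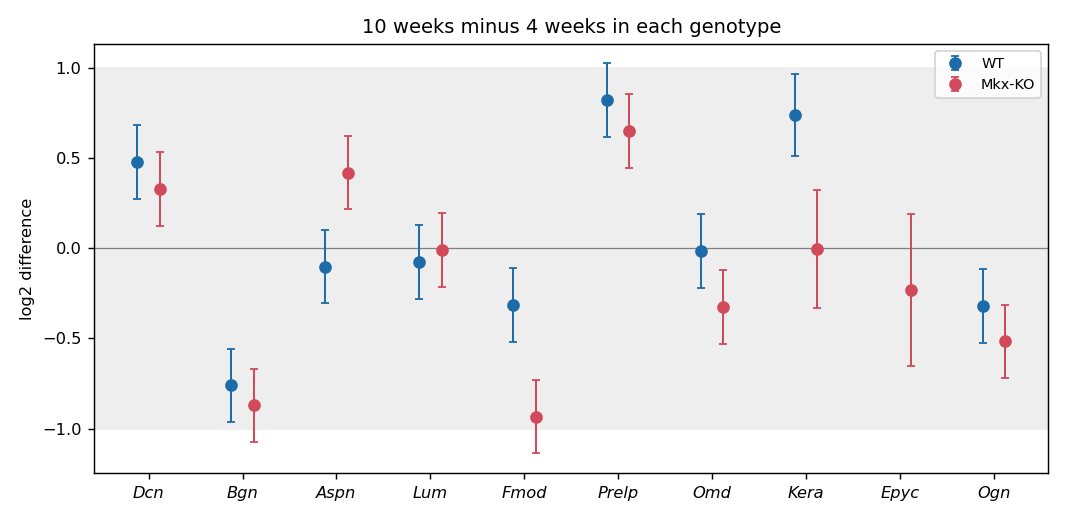
Log2 difference of each gene between 10 and 4 weeks, for both genotypes. Bars are technical errors and the grey band spans 2-fold in either direction. All points lie inside the band, with Bgn, Fmod and Ogn below 0 and Dcn and Prelp above 0 in both genotypes (Fmod and Ogn in WT are at 0.04 with the deposited series table); Epyc in WT has no measured difference.

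In the same limma fit the age difference was -0.82 for Bgn (95% interval -1.25 to -0.39, unadjusted p 0.0100, adjusted p 0.176) and 0.74 for Prelp (0.29 to 1.19, unadjusted p 0.0147, adjusted p 0.176). No member and no gene of the array passed an adjusted p of 0.05 for age with limma, and 4074 genes (24.3%) had an unadjusted p below 0.05. After normexp correction limma passed 31 genes for age, none of them a member, and 0 for genotype. The age comparisons in WT and Mkx-KO share no array with each other, but each shares its arrays with the genotype comparisons.

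Whether the genotype difference itself changed with age could not be tested, because 4 arrays leave no residual for an interaction. The genotype difference at 10 weeks minus that at 4 weeks was -0.74 ± 0.40 for Kera, a size that 12.0% of 15504 genes reached or passed. It was -0.62 ± 0.29 for Fmod (16.0% of genes) and 0.52 ± 0.29 for Aspn (20.4%). The other members well above background on all arrays lay between -0.31 and 0.07.

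Genes of related repeat proteins were less than 2-fold apart between genotypes. Podn, which encodes podocan, was at -0.41 ± 0.20 at 10 weeks and -0.36 ± 0.20 at 4 weeks, and was higher at 10 weeks by 0.81 in WT and 0.75 in Mkx-KO. Chad, the chondroadherin gene, was at 0.74 and 0.98 with age, and Ecm2, which lies next to Aspn, at -0.44 with genotype at 4 weeks. The Chad spots were dim, at 24.6 to 47.6 on the 4 arrays. Of 7 measured genes of this list none was called for genotype at either age. With age none of 6 was called in WT, and 1 of 8, Nyx (-1.50), was called in Mkx-KO. The Nyx spots were dim there, at 13.1 (10 weeks) against 41.1 (4 weeks).

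Genes that build and sulphate the sugar chains showed no 2-fold genotype difference. For chondroitin and dermatan sulphate synthesis the count was 0 of 21 at each age, with medians of 0.08 and 0.14. With age the medians were -0.27 in WT and -0.49 in Mkx-KO, and Chst13, a chondroitin sulphotransferase gene, was called in both, at -1.73 and -1.02. Its spots were dim, at 21.1 to 71.5 on the 4 arrays. The chain polymerising genes Chpf and Chsy1 were at -0.58 and -0.76 in WT and at -0.96 and -0.89 in Mkx-KO. For keratan sulphate synthesis 0 of 6 were called for genotype, with medians of 0.09 and -0.07. Chst5, which encodes a keratan sulphate sulphotransferase, was called with age in Mkx-KO at 1.44 and was at 0.71 in WT. It was also dim, at 17.5 to 45.1. In the list of sulphate supply and tyrosine sulphation none of 7 was called in any comparison, and the median age difference was -0.20 in WT and -0.53 in Mkx-KO, where those of all genes were -0.10 and -0.15.

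Collagen genes, whose products the family binds, had median genotype differences of 0.16 at 10 weeks and 0.15 at 4 weeks, where those of all genes were 0.01 and 0.06, and none of 12 was called. Col6a2, Col5a1 and Col6a1 were at 0.84, 0.79 and 0.69 at 4 weeks and at 0.00, 0.10 and -0.06 at 10 weeks. With age 1 of 12 was called in WT, Col14a1 at -1.08, and 4 of 12 in Mkx-KO, Col6a2 (-1.50), Col6a1 (-1.37), Col5a1 (-1.25) and Col14a1 (-1.18), against 3.83% and 3.84% of all genes called lower. Among 11 proteases none was called for genotype at 10 weeks. At 4 weeks Adamts4, an aggrecanase gene, was called at 1.21 and Mmp8, a neutrophil collagenase gene, at -1.34, beside neutrophil precursor markers of which 5 of 6 were at least 2-fold lower. With age Adamts4 was called at -2.72 in WT and -3.03 in Mkx-KO. Mmp9 (-1.68) and Mmp3 (1.13) were also called in WT, and Mmp14 (-1.13) and Mmp8 (2.36) in Mkx-KO, where 5 of 6 neutrophil precursor markers were at least 2-fold higher. The Mmp3 spots were dim, at 64.6 (10 weeks) against 25.5 (4 weeks) in WT. Of 14 measured growth factors and receptors none was called for genotype, and Tgfb1 was at -1.13 with age in Mkx-KO and -0.63 in WT.

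The genes nearest to Kera in profile were Serpinb7, Abca4, Unc5c, Spink12 and 2310050C09Rik, by the distance between levels on the 4 arrays after centring each gene, among 15503 genes well above background on all of them. Their distances were 0.56 to 0.70 log2 units. In this order their genotype differences at 4 weeks were -0.77, -1.25, -1.20, -1.14 and -0.37. Serpinb7 (14.6 to 47.4), Spink12 (23.5 to 125.5) and 2310050C09Rik (23.8 to 107.8) were also dim. Serpinb7 and Spink12 encode serine protease inhibitors and Abca4 a lipid transporter of photoreceptors. Unc5c, a netrin receptor gene, read 1298 (WT) against 498 (Mkx-KO) at 10 weeks, and 669 (WT) against 313 (Mkx-KO) at 4 weeks. As a gene chosen for its likeness to Kera, it had both WT signals above both Mkx-KO signals, with genotype differences of -1.13 and -1.20. With 4 arrays such likeness is a description of these arrays.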

How the data were processed

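Gene expression was measured on 4 one-colour (Cy3) Agilent arrays, 1 for each group, on 1 slide. The authors deposited scanner output of Agilent Feature Extraction 11.5.1.1, per the file headers and the submitters' processing notes: spot intensity on a linear scale, background-subtracted and detrended by that software. The deposited series table, also intensity, is proportional to the processed signal, with a separate factor for each array (1.81, 2.08, 1.64 and 1.54), for reasons not given in the sources used here; its values are linear and not centred, and its column medians are 87.0, 87.0, 62.2 and 56.8 in the order WT and Mkx-KO at 10 weeks, then WT and Mkx-KO at 4 weeks.

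Control spots and 60 to 77 outlier spots per array were left out, spots of a probe were averaged, and log2 signals were scaled to each array's 75th percentile. No spot was saturated. Accessions named 32994 of 56605 probes through a RefSeq table (GRCm38.p6; the array design is on another build, so no probe positions are given). Where 1 array of a pair was below background, a bound was formed with the lowest passing level on that array. Genotype and age were fitted with limma 3.58.1 (R 4.3.3) over the 16795 genes that passed as above background on 2 or more arrays. The p-values were adjusted by Benjamini-Hochberg. The fit was also tested on simulated levels with a common spread for all genes and no interaction, a simpler setting than these arrays. Figures used matplotlib 3.10.9.

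The members, lists and comparisons were chosen with earlier results of these data known. Named genes are the 10 members, Mkx, up to 4 genes per related list with the largest mean difference, the 5 genes nearest to Kera and the defining markers; Nyx and Mmp3 were named after their values were seen. Alternatives were normexp, quantile and median scaling, the series table, the mean over probes, folds of 1.5 and 3, a limit of 2 technical errors, and other forms of the limma fit.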

Additional observations from a re-analysis of the deposited data

Results flagged for a closer look

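Fmod was marked because its genotype difference had opposite signs at the 2 ages, -0.19 at 10 weeks and 0.43 at 4 weeks, a difference between them of -0.62 that exceeds 2 technical errors. With quantile normalization the genotype differences of Fmod were -0.18 at 10 weeks and 0.33 at 4 weeks, less than 2 technical errors apart. With 1 array per group the difference between the ages was not tested.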

How the results depend on the processing

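The mean over probes alters only Prelp among the members, as the others have 1 probe. The genotype differences measured for the others kept their sign under it and under normexp, quantile and median scaling and the series table. Prelp at 4 weeks (0.00) did not. Under these 5 the members' median was -0.27 to -0.20 for genotype at 10 weeks, -0.10 to -0.07 at 4 weeks, and -0.23 to -0.15 for the difference between these ages. Recomputing that last quantity was chosen after seeing the data. The call of Kera was lost with normexp at both ages (0 members called at 10 and at 4 weeks) and with quantile normalization at 4 weeks (0 called). With 1.5-fold as limit 2 members were called for genotype at 10 weeks (8.92% of all genes), and 3 for age in WT (23.3%) and 3 in Mkx-KO (27.4%); with 3-fold 0 were called for genotype at 4 weeks (1.57%). The series table called 2 members for age in WT and moved the age medians to 0.28 in WT and 0.17 in Mkx-KO, as it scales all genes upward at 10 weeks; quantile normalization gave 0.17 in WT. Under the series table the genes called for age were 1536 higher and 317 lower in WT, and 1535 and 262 in Mkx-KO, against 806 and 617, and 979 and 601, with the 75th percentile. Normexp called 150 and 259 genes for genotype at 10 and 4 weeks and 705 and 815 for age in WT and Mkx-KO, against 396, 593, 1423 and 1580, and with it limma called 31 genes for age, none of them a member. The mean over probes brought the age difference of Prelp to 0.37 in WT and 0.32 in Mkx-KO. No paired analysis was possible because each group has 1 array. Low signal limits what can be said of Kera and Epyc, whose spots lay close to the local background. The spots of Chst13, Chst5, Nyx, Chad and Mmp3 were similarly dim.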
